A study of Mus musculus with 8 samples.

Results

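The mRNAs of 10 genes of the eIF2alpha-ATF4 branch of the integrated stress response were followed through arsenite stress and recovery in NIH3T3 cells, a mouse embryonic fibroblast line. The genes were Atf4, Ddit3, Trib3, Chac1, Asns, Ppp1r15a, Sesn2, Ddit4, Atf5 and Cebpb. They were taken by name, and all 10 were present in each of the 3 gene tables, which together held 10690 genes, 9875 of them in every table. RNA was sequenced by QuantSeq FWD, an oligo(dT)-primed method whose reads fall near the poly(A) site (PAS) of a transcript. The 4 conditions were nontreated cells (NT), cells given 250 µM sodium arsenite for 1 h (AS), and cells returned to regular medium after that treatment for a recovery of 4 h (RC4) or of 8 h (RC8). Each condition had 1 library, so no difference between conditions could be tested and no p-value is given. All intervals below cover counting error only, which is smaller than the spread that separate cultures would show.

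In this pathway, stress-activated kinases phosphorylate the translation factor eIF2alpha, which lowers protein synthesis in general but favours translation of the Atf4 mRNA through short upstream reading frames. The ATF4 protein then binds composite C/EBP-ATF elements and related sites and activates genes for amino acid supply, redox balance and, under prolonged stress, cell death. Several of its targets feed back on the pathway, and arsenite is a classical inducer of it. Because much of the control of Atf4 is translational, its mRNA level is not a measure of its protein.

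Levels are given as RPM, a gene's reads per 1000000 reads on all genes of a table. The libraries held 22441452 to 22996421 such reads, and the 10 genes had between 124 reads (Sesn2 in RC8) and 14805 reads (Atf4 in AS). In the arsenite libraries, 6 of 6 measured arsenite-responsive genes were at least 2-fold above NT in AS and in RC4, and 4 of 6 were in RC8, among them Hmox1, whose level went from 27.6 RPM in NT to 888 RPM in RC4 and 101 RPM in RC8. All 8 fibroblast markers checked were present, with summed levels of 14482 RPM under NT conditions, 15097 under AS, 11574 at RC4 and 8724 at RC8, while 4 epithelial, 3 leukocyte and 3 endothelial markers were absent from the tables, which hold only genes with at least 50 reads. The part of this lower marker level in the results for RC8 was not tested. In bulk RNA, fewer cells carrying a transcript and less of it per cell cannot be told apart. The median gene was at -0.04 (log2) in AS over NT, at -0.30 in RC4 over NT and at 0.01 in RC8 over NT. Values of the 10 genes in RC4 over NT are therefore also given relative to the median gene.

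Of the 10 genes, 3 were at least 2-fold higher in AS than in NT (Ddit3, Chac1 and Ppp1r15a), against 0.622% of all 10452 genes, and none was at least 2-fold lower, against 3.22%. In RC4 the number at least 2-fold above NT was 5 (Ddit3, Trib3, Chac1, Asns and Ppp1r15a), against 3.69% of 10081 genes, and 1 was lower (Cebpb), against 13.4%. Relative to the median gene the same 5 and 1 passed 2-fold in RC4, against 6.38% of all genes in each direction. These log2 values were 1.66 (Ddit3), 2.54 (Trib3), 1.85 (Chac1), 1.58 (Asns), 2.25 (Ppp1r15a) and -1.77 (Cebpb). The value of Sesn2 was 0.82. In RC8 only Asns remained at least 2-fold above NT, against 2.97% of 10441 genes, and only Cebpb was at least 2-fold below it, against 3.53%. Over NT, the 10 genes had a median log2 ratio of 0.46 (AS), 0.89 (RC4) and 0.11 (RC8), beside the medians over all genes given above. These 3 comparisons share the NT library. Over the 4 libraries the level was highest in RC4 for 5 of the genes, in AS for 4 and in NT for 1.

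**Figure D1:**
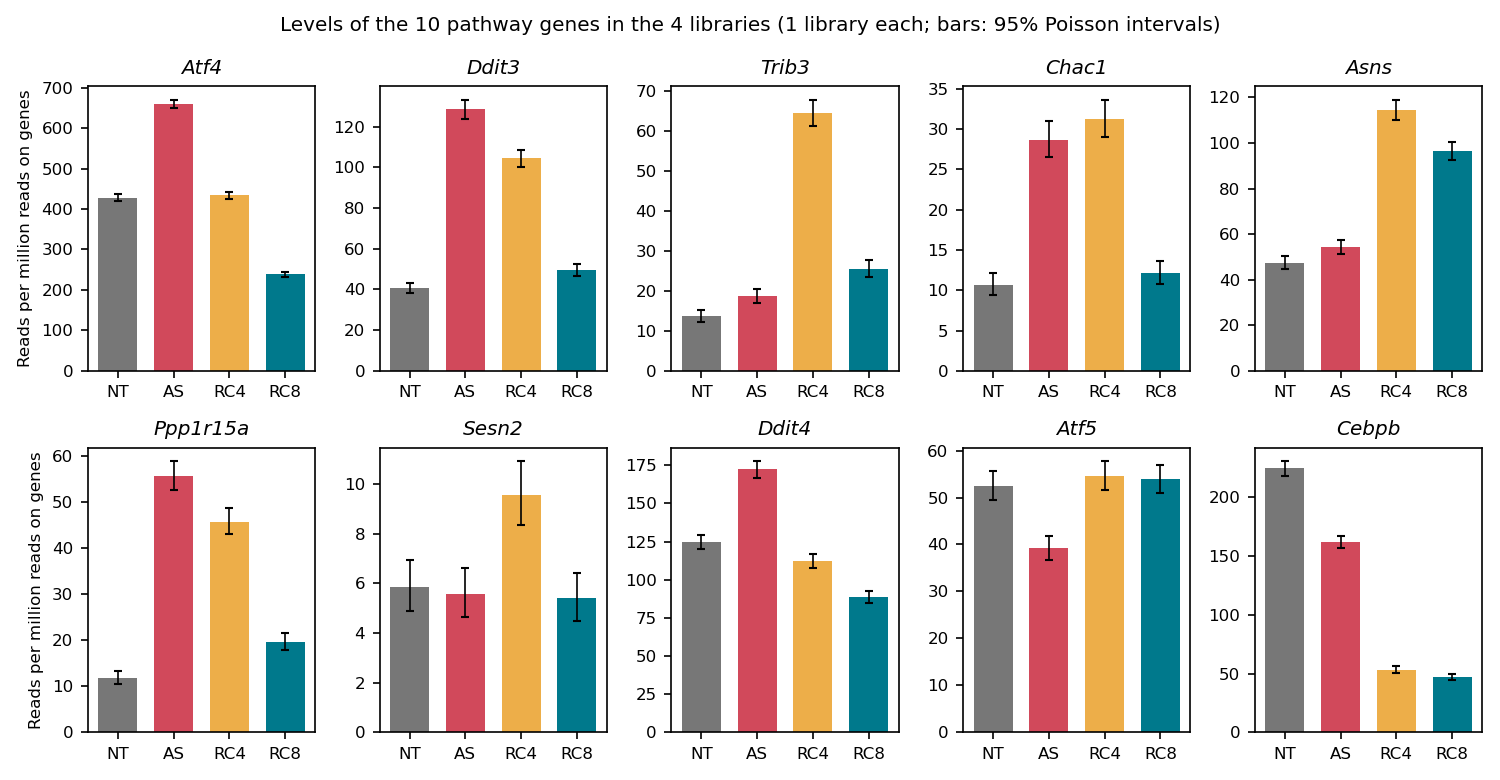
Level of each of the 10 genes (y axis, RPM, starting at 0 and scaled to each gene) in the NT, AS, RC4 and RC8 libraries (x axis), with 1 library per bar and 95% Poisson intervals as error bars. Ddit3 and Ppp1r15a are highest in AS, Trib3 and Asns in RC4, and Cebpb in NT.

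The transcription factors of the group are Atf4, Ddit3, Atf5 and Cebpb. Atf4 (chr15:80085614-80087970, plus strand, mm9) encodes the central activator. It was at 428 RPM (NT), 660 (AS), 433 (RC4) and 239 (RC8). By total reads the order was thus AS first and RC8 last, with NT and RC4 together. The exact 95% counting interval of the RC4 over NT log2 ratio, -0.03 to 0.05, held 0. Over NT the log2 ratio was 0.62 (0.59 to 0.66) in AS and -0.84 (-0.89 to -0.79) in RC8. Relative to the median gene, the RC4 value was 0.32, above its interval by total reads, so the likeness of NT and RC4 depends on the scaling.

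Ddit3 (chr10:126727830-126733344, plus strand) encodes CHOP, a bZIP factor tied to stress-induced cell death. Its level was 40.6 RPM under NT conditions, 128 under AS, 104 at RC4 and 49.4 at RC8. That is 3.16-fold above NT in AS (log2 1.66, interval 1.55 to 1.77), 2.56-fold in RC4 and 1.21-fold in RC8. By total reads all 4 counting intervals were apart, with NT lowest. Relative to the median gene, the log2 ratio of RC4 over AS was only -0.08. Mars, the methionyl-tRNA synthetase gene, is annotated on the opposite strand at the end of Ddit3. It was at 91.5 RPM (NT), 91.0 (AS), 70.0 (RC4) and 47.7 (RC8). Whether the counting used strand is not given in the sources used here, so reads of the overlapping ends may not be fully assigned.

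Atf5, a paralog of Atf4 whose mRNA also carries upstream reading frames, was at 52.5 RPM under NT conditions, 39.2 under AS, 54.6 at RC4 and 53.8 at RC8. By total reads only AS stood apart, at a log2 ratio over NT of -0.42 (-0.55 to -0.29). The intervals in RC4 and RC8 held 0. Relative to the median gene, RC4 was at 0.36, above its interval by total reads (-0.06 to 0.17). The likeness of RC4 to NT therefore depends on the scaling.

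Cebpb (chr2:167514415-167515918, plus strand) encodes C/EBP beta, a bZIP partner of ATF4. It ran the other way from most of the group, at 225 RPM (NT), 162 (AS), 53.5 (RC4) and 47.0 (RC8). Its log2 ratio over NT was -0.47 (-0.53 to -0.41) in AS, -2.07 (-2.16 to -1.98) in RC4 and -2.26 (-2.35 to -2.16) in RC8. Expressed as folds, NT was 4.21 times RC4 and 4.79 times RC8. In RC8, 0.153% of all genes had a lower ratio than Cebpb.

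Trib3 and Ppp1r15a encode feedback inhibitors of the pathway. Trib3 (chr2:152163158-152169768, minus strand) codes for a pseudokinase that binds ATF4 and CHOP. Its level was 13.6 RPM under NT conditions, 18.6 under AS, 64.5 at RC4 and 25.5 at RC8, so RC4 stood far above the other 3 libraries. The log2 ratio over NT was 0.45 (0.23 to 0.67) in AS, 2.24 (2.06 to 2.42) in RC4 and 0.90 (0.70 to 1.11) in RC8. Among the 10 genes this was the largest ratio in RC4, and 99.6% of all genes had a lower one.

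Ppp1r15a (chr7:52778286-52781638, minus strand) encodes GADD34, the subunit that brings the catalytic phosphatase to eIF2alpha. It was at 11.9 RPM (NT), 55.7 (AS), 45.8 (RC4) and 19.7 (RC8), with no overlap between the counting intervals by total reads. Relative to the median gene, the log2 ratio of RC4 over AS was only -0.07. The AS level was 4.70-fold that of NT (log2 2.23, interval 2.04 to 2.43), and 99.96% of all genes had a lower ratio. In RC4 the ratio was 3.85-fold and in RC8 1.66-fold. Its annotated end overlaps Tulp2 on the opposite strand, a gene absent from the tables. Ppp1r15b, which encodes the constitutive counterpart of GADD34, was at 157 RPM under NT conditions, 97.2 under AS, 101 at RC4 and 109 at RC8, below NT in all 3 and never by 2-fold.

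Chac1 and Asns encode enzymes. Chac1 (chr2:119176965-119180117, plus strand), whose product degrades glutathione, was at 10.7 RPM (NT), 28.7 (AS), 31.3 (RC4) and 12.1 (RC8). By total reads, AS and RC4 were not distinguishable by counting error (log2 RC4 over AS 0.12, interval -0.04 to 0.28), and neither were RC8 and NT (log2 0.18, interval -0.07 to 0.43). Between these pairs the log2 ratio was 1.42 (1.21 to 1.64) for AS over NT and 1.54 (1.33 to 1.76) for RC4 over NT. Relative to the median gene, RC4 over AS was 0.34, above its interval by total reads, so that likeness depends on the scaling.

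Asns (chr6:7625169-7643254, minus strand) encodes asparagine synthetase, which makes asparagine from aspartate. It was at 47.4 RPM under NT conditions, 54.4 under AS, 115 at RC4 and 96.5 at RC8. Here the high libraries were the recovery ones, at log2 ratios over NT of 1.27 (1.17 to 1.38) in RC4 and 1.03 (0.92 to 1.13) in RC8, against 0.20 (0.08 to 0.32) in AS. The interval in RC8 reaches below a log2 of 1, so the 2-fold call there is not settled by the counts. With the first of the 2 count columns alone the RC8 value was 0.99, short of 2-fold.

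Sesn2 and Ddit4 encode inhibitors of mTORC1 signalling. Sesn2 (chr4:132047947-132066416, minus strand) was the most thinly covered of the group, at 5.84 RPM (NT), 5.57 (AS), 9.57 (RC4) and 5.39 (RC8). Only RC4 stood above NT, at a log2 ratio of 0.51 (0.21 to 0.82). The AS and RC8 intervals, -0.43 to 0.29 and -0.67 to 0.04, both held 0. The NT library was given 132 Sesn2 reads in the AS table and 151 in the others. The NT level of 5.84 RPM is that of the AS table. The RC4 and RC8 ratios were taken over NT at 6.70 and 6.69 RPM. Over the NT reads of the AS table, with genes in all 3 tables, they were 0.71 and -0.12. For the other 9 genes the NT reads differed by 2 or fewer between tables.

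Ddit4 (chr10:59412423-59414518, minus strand), which encodes REDD1, was at 125 RPM under NT conditions, 172 under AS, 112 at RC4 and 88.8 at RC8. AS was thus the highest library and RC8 the lowest. The log2 ratio over NT was 0.47 (0.40 to 0.54) in AS and -0.49 (-0.57 to -0.41) in RC8. In RC4 the value was -0.15 by total reads and 0.15 relative to the median gene, so no direction is given for it.

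**Figure D2:**
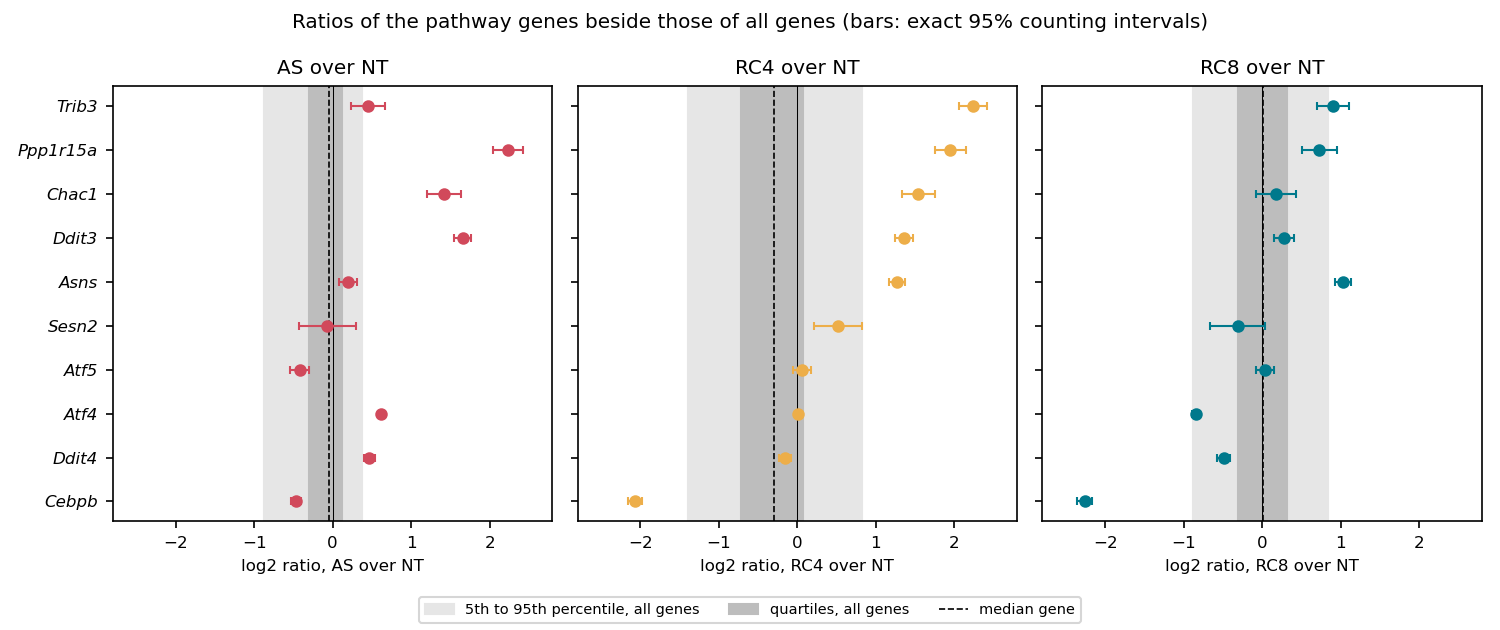
Log2 ratio over NT (x axis) of each of the 10 genes (y axis, ordered by their ratio in RC4) in AS, RC4 and RC8, with exact 95% counting intervals as error bars, drawn over the quartiles and the 5th to 95th percentiles of all genes. Ppp1r15a, Ddit3, Chac1 and Trib3 lie right of the grey bands in AS and RC4, Trib3 most in RC4. Atf4 and Ddit4 also do so in AS, Asns in RC4, and Asns and Trib3 in RC8. Cebpb lies left of the bands in RC4 and RC8.

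Set directly against AS, RC4 was at least 2-fold higher for Trib3 (3.45-fold, log2 1.79, interval 1.63 to 1.95) and Asns (log2 1.07, interval 0.97 to 1.17), that is 2 of 10 genes against 5.89% of 9940. It was at least 2-fold lower for Cebpb (log2 -1.60), 1 of 10 against 10.6%. Ddit3 and Ppp1r15a, the genes with the largest ratios in AS, were at -0.30 and -0.29 by total reads, and at -0.08 and -0.07 relative to the median gene, which was at -0.22. With the first count column alone, Asns was at 0.96 in this comparison. The 10 genes had a median of -0.08.

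From RC4 to RC8 all 10 ratios were below 0, and 9 of the intervals lay wholly below 0, the exception being Atf5. At least 2-fold lower in RC8 were Ddit3 (log2 -1.08), Trib3 (-1.33), Chac1 (-1.36) and Ppp1r15a (-1.22), 4 of 10 genes against 2.11% of 9972. None was at least 2-fold higher, against 13.3% of all genes. The Ddit3 interval, -1.18 to -0.98, extends to values short of 2-fold, so that call is not settled by the counts. With the first count column alone, Ddit3 was at -0.94. The median of the 10 genes was -0.84 where the median gene was at 0.27. Relative to the median gene, Atf4 (-1.12) and Sesn2 (-1.09) also passed 2-fold, making 6 of 10 against 3.96% of all genes. Asns had a ratio of -0.24, against -1.33 for Trib3.

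Genes with the course most like that of a member were found by the distance between their 3 log2 ratios over NT, over the 9875 genes in all tables with the 10 members left out. For Atf4 they were Gm3571 (distance 0.27), Fhl1 (0.29) and Wdr34 (0.33). For Ddit3 they were Gm13196 (0.49), Fam213a (0.58) and 1700056E22Rik (0.59), all farther away than Chac1 (0.32). For Trib3 they were Prkx (0.32), Hsp90aa1 (0.38) and Nabp1 (0.40). The member nearest to Trib3, Asns, was at a distance of 1.01, and that nearest to Atf4, Ddit4, at 0.42. Each distance rests on 4 libraries and 3 ratios with a common denominator.

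Promoters of all 10 genes, 11 in number, were found in the RefSeq promoter table (GRCm38.p6, 250 bases before to 50 after each start) and were searched on both strands for the C/EBP-ATF element TGATGNAA and for the cAMP response element TGACGTCA. The matches are shown because these are the element types to which ATF4 and its partners bind. Each line holds the match in capitals with up to 16 bases on either side, 5′ to 3′ on the gene's strand.
Chac1 (chr2:119351033-119351072): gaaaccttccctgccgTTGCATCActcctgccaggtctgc
Trib3 (chr2:152344061-152344084): gcagattagctcaggtTTACATCA
Asns (chr6:7693210-7693248): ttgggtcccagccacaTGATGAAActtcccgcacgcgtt
Ppp1r15a (chr7:45526269-45526296): gaccccgcctctccggTGACGTCAgcac
The first 3 matches are of the C/EBP-ATF element, on the opposite strand in Chac1 and Trib3. They start at -193, 14 and -23 from the gene start. It was held by 3 of the 11 promoters and by 3.97% of all 32851. The last is the cAMP response element, at -12, held by 1 of the 11 and by 1.79% of all. No match says only that these letters are not in the window, and no binding was measured.

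PAS use within the genes was read from the deposited shares, which split a gene's reads among its PASs. The shares are estimates of a model that places reads. Intervals and errors of shares below leave out the error of that placement, which was not measured here. Trib3, Ppp1r15a, Sesn2, Ddit4 and Atf5 had 1 PAS in every table. Among the genes with more than 1 PAS, a shift of at least 10 percentage points over NT was seen in 1 of 2 in AS (Ddit3), against 15.2% of all such genes, in 1 of 5 in RC4 (Cebpb), against 29% of all, and in 3 of 4 in RC8 (Ddit3, Chac1 and Cebpb), against 26.9%. The median largest shift over all genes was 4.2, 6.2 and 6.0 percentage points.

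The 30 bases that end at the PASs of Ddit3 and Cebpb are given because the largest shifts were in these genes, and those of Atf4 because it heads the pathway. They were read from NCBIM37, the assembly also called mm9, on the gene's strand, 5′ to 3′. Capitals mark a match to a poly(A) signal hexamer (the canonical AATAAA, the common ATTAAA or 1 of 10 rarer variants) where there is one.
Ddit3, first PAS (chr10:126733124-126733153): atggtcagcctgcaccaagcatgaacagtg
Ddit3, middle PAS (chr10:126733313-126733342): tccatgtccAGTAAAgtgactttgtgtcaa
Ddit3, last PAS (chr10:126733418-126733447): gatccaagagtttagccacctctgcagcaa
Cebpb, main PAS (chr2:167515860-167515889): gtttcgagcATTAAAgtgaagacattttaa
Cebpb, distal PAS (chr2:167515974-167516003): ttggatttatgcgagattttgtttttgtgt
Atf4, first PAS (chr15:80087877-80087906): agagagttccgtaatagggtagtcaggtgc
Atf4, middle PAS (chr15:80087985-80088014): tcagtgtcattctttgtAATAGActtaact
Atf4, last PAS (chr15:80088087-80088116): tgaagatgagggagctctgggttAATGAAa
A match was found in the middle PAS of Ddit3, the main PAS of Cebpb and the middle and last PASs of Atf4. Counted back from the PAS, the match starts at base 21 in Ddit3 and in Cebpb. In Atf4 it starts at base 13 (middle PAS) and at base 7 (last PAS). Use of these letters as a signal was not measured. Over all 21565 PAS positions in the tables, 47.0% had AATAAA or ATTAAA in this window and 64.4% had any of the 12 hexamers. The first PASs of Ddit3 and Atf4 lie 6 and 16 nt past the annotated stop codon.

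**Figure D3:**
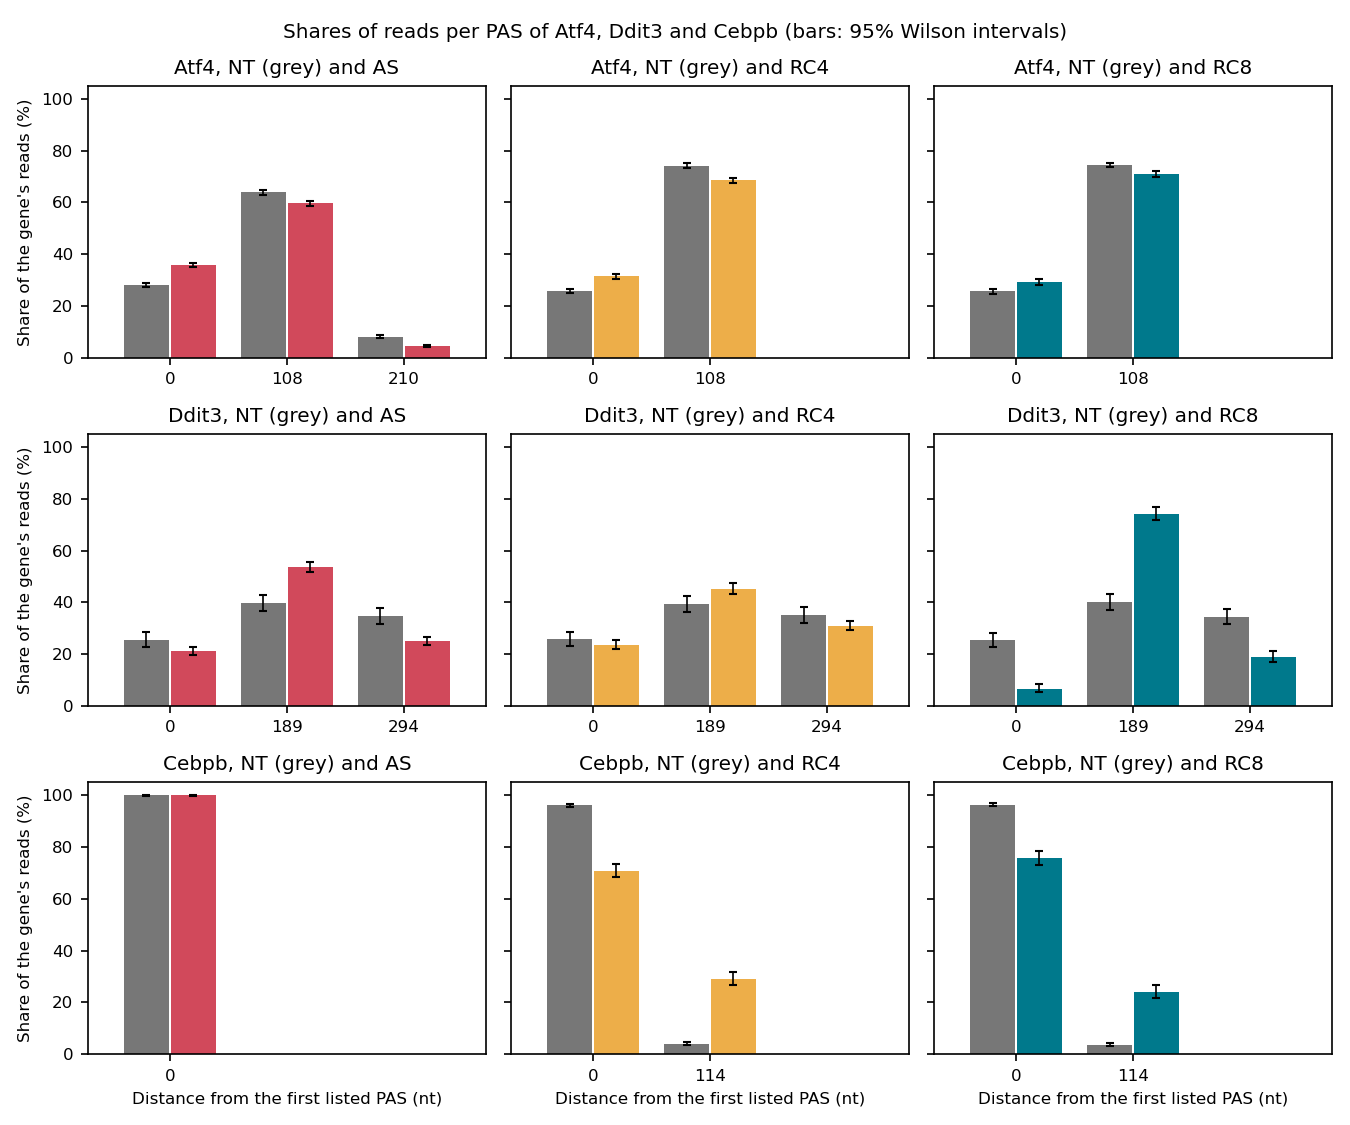
Share of each gene's reads (y axis, percent, with 95% Wilson intervals) at each listed PAS of Atf4, Ddit3 and Cebpb, placed by its distance in nt from the first listed PAS, in NT (grey) and in AS, RC4 or RC8 (colour). The middle PAS of Ddit3 goes from 40.1% in NT to 74.3% in RC8, and the distal PAS of Cebpb from 3.92% to 29.1% in RC4.

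In Ddit3 the middle PAS, 189 nt past the first and the one with the AGTAAA match, took 39.7% of reads in NT and 53.7% in AS (Wilson interval 51.9 to 55.5). In the RC4 table the shares were 39.2% and 45.3% (43.3 to 47.3), and those of the RC8 table were 40.1% and 74.3% (71.7 to 76.8). The middle PAS thus had the higher share in all 3 treated libraries, most in RC8. Both neighbours lost share in RC8, the first PAS from 25.3% to 6.68% and the last, 294 nt past the first, from 34.5% to 19.0%. Put as levels, the middle PAS was at 16.3 RPM in NT and 36.7 RPM in RC8, while the first was at 10.3 and 3.30 RPM and the last at 14.0 and 9.38 RPM. The 1.21-fold ratio of Ddit3 in RC8 is therefore the sum of 1 PAS above NT and 2 below it.

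The relative expression difference (RED), the log2 ratio of distal to proximal reads in a treated library less that in NT, gives the same split. Between the first and the middle PAS of Ddit3 it was 0.70 ± 0.14 (AS), 0.33 ± 0.14 (RC4) and 2.81 ± 0.21 (RC8), where ± is the counting standard error. Between the middle and the last it was -0.91 ± 0.13, -0.38 ± 0.13 and -1.75 ± 0.16. Each of these kept its sign over the 3 libraries, and the weighted length of the Ddit3 ends moved by only -0.02, -0.00205 and 0.15 on the log2 scale. The middle and last PASs lie where Mars is annotated on the other strand.

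Cebpb had a main PAS and, in the RC4 and RC8 tables, a distal PAS 114 nt beyond it. The distal PAS took 3.92% of reads in NT and 29.1% (26.6 to 31.7) in RC4, and 3.61% in NT and 24.1% (21.6 to 26.7) in RC8. In levels, the main PAS was at 216 RPM in NT and 37.9 in RC4, and at 217 in NT and 35.6 in RC8. The distal PAS was at 8.83 RPM in NT and 15.6 in RC4, and at 8.11 in NT and 11.3 in RC8. The loss of Cebpb reads was thus at the main PAS, 5.71-fold in RC4 and 6.08-fold in RC8, while the distal PAS was above NT in both. RED between them was 3.33 ± 0.14 in RC4 and 3.08 ± 0.15 in RC8. In the AS table only the main PAS was present. The authors selected PASs by a minimum share, so this does not show that the distal PAS was unused in AS.

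Atf4 moved the other way and less. Its first PAS took 28.0% of reads in NT and 35.9% (35.1 to 36.7) in AS, 25.8% and 31.4% (30.5 to 32.3) in RC4, and 25.6% and 29.1% (27.9 to 30.3) in RC8. The last PAS, 210 nt past the first, was listed only for AS, with 8.08% of reads in NT and 4.48% (4.16 to 4.83) in AS. The shares for RC4 and RC8 were thus split over fewer PASs, and shares compare only within each pair with NT. RED between the first PAS and the next, 108 nt on, was -0.46 ± 0.04, -0.40 ± 0.05 and -0.25 ± 0.05, below 0 in all 3 libraries. In AS the first PAS was at 237 RPM against 120 in NT, a 1.97-fold ratio, and the middle PAS was at 393 against 274, a 1.43-fold ratio. None of these shifts reached 10 percentage points.

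Chac1 and Asns gave less to compare. The tables listed different proximal PASs for Chac1, 136 nt before the last PAS in RC4 and 107 nt before it in RC8, and a single one in AS. The last PAS took 47.8% of reads in NT and 47.3% (43.7 to 51.0) in RC4, and 46.8% in NT and 26.3% (21.5 to 31.8) in RC8. RED was -0.03 ± 0.21 in RC4 and -1.30 ± 0.27 in RC8. Asns had a second PAS, 390 nt past the first, only in the RC4 table, where it took 3.24% of reads in NT and 5.49% (4.68 to 6.43) in RC4.

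The rest of the pathway was described by 6 lists with 57 measured genes: the eIF2alpha kinases, eIF2 and eIF2B subunits, eIF2alpha phosphatase, amino acid genes, tRNA synthetases and other targets of ATF4 or CHOP. Of these 57, 1 was at least 2-fold higher and none lower in AS, 12 were higher and 2 lower in RC4, and 3 were higher and none lower in RC8. Measured from the median gene, 19 were higher and none lower in RC4. Their median log2 ratio over NT by total reads was 0.02 (AS), 0.38 (RC4) and 0.17 (RC8). The shares of all genes past 2-fold stand beside these counts and beside those of each list below. By total reads they were 0.622% higher and 3.22% lower in AS, and 3.69% and 13.4% in RC4. In RC8 they were 2.97% and 3.53%. Relative to the median gene in RC4, 6.38% passed in each direction.

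Upstream of Atf4, none of the 4 eIF2alpha kinases was 2-fold above NT in any treated library. In RC4, 2 were at least 2-fold lower, Eif2ak2, which encodes the double-stranded RNA sensor PKR (27.6 RPM in NT, 11.8 in RC4, log2 -1.22), and Eif2ak4, which encodes the amino acid sensor GCN2 (24.2 and 11.7 RPM, log2 -1.05). Relative to the median gene these were -0.92 and -0.75, short of 2-fold. None of the 8 eIF2 and eIF2B subunits passed 2-fold by total reads, Eif2s2 being the farthest from NT in RC4 (406 and 779 RPM, log2 0.94). Its RC4 value relative to the median gene was 1.24, past 2-fold. The 4 genes of the eIF2alpha phosphatase other than Ppp1r15a did not pass 2-fold either.

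Downstream, the amino acid list held 17 measured genes, of which 5 were at least 2-fold above NT in RC4, none in AS and 1 in RC8. The median log2 ratio of the list was 0.02 (AS), 0.59 (RC4) and 0.17 (RC8). All 17 were above the median gene in RC4, and relative to it 8 passed 2-fold, Slc7a1 (1.27), Cth (1.17) and Slc7a5 (1.14) joining the 5. Slc7a11, which encodes the cystine-glutamate exchanger subunit xCT, was at 6.35 RPM in NT and 199 RPM in RC4 (log2 4.97, interval 4.73 to 5.22), and at 49.9 RPM in RC8 (log2 2.98). This was a larger ratio than that of any of the 10 genes. Whether ATF4 or another factor acted on Slc7a11 and the other genes of this list was not tested. Slc1a4, a neutral amino acid transporter gene, had a log2 ratio in RC4 of 1.43, Aldh18a1, which acts in proline synthesis, 1.29, and Psph, which acts in serine synthesis, 1.26.

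The cytosolic tRNA synthetase list had 13 measured genes, none past 2-fold in AS, 4 higher in RC4 and 1 in RC8, with medians of 0.00126, 0.61 and 0.30. In RC4 these were Sars (log2 1.42), Aars (1.41), Nars (1.36) and Gars (1.11), which charge serine, alanine, asparagine and glycine tRNAs. Taken relative to the median gene, 6 of the 13 passed 2-fold in RC4. Aars was also the one past 2-fold in RC8 (log2 1.06). The 1 gene of the list below the median gene in RC4 was Mars, the gene next to Ddit3, at a log2 ratio of -0.39.

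Among 11 other targets of ATF4 or CHOP, Gadd45a, a growth arrest gene, was at 9.43 RPM in NT, 19.5 in AS and 31.9 in RC4, and it was the 1 gene of the list past 2-fold in AS (log2 1.05, interval 0.81 to 1.29). In RC4 Eif4ebp1, which encodes the translation repressor 4E-BP1 (log2 1.39), and Vegfa, which encodes an angiogenic growth factor (log2 1.03), joined it, and relative to the median gene Nupr1 made 4. Eif4ebp1 was the 1 past 2-fold in RC8, at 1.30.

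Outside the pathway, the ER chaperone list, which stands for the other branches of the unfolded protein response, had 8 measured genes. None passed 2-fold in AS. In RC4, Dnajb9, which encodes a co-chaperone of the ER, was higher (log2 1.28), and Sdf2l1 (-1.64) and Pdia4 (-1.22), an ER chaperone complex component and a protein disulfide isomerase, were lower. In RC8 Sdf2l1 (-1.40) and Pdia4 (-1.25) were again lower, and the median of the list was -0.67. The Pdia4 value in RC4 was -0.91 relative to the median gene, short of 2-fold. Over all genes, 3.69% were at least 2-fold higher and 13.4% lower in RC4, and 3.53% were lower in RC8.

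A list of paralogs and bZIP partners of the 10 genes had 8 measured members. Of these, 1 was at least 2-fold higher in AS, against 0.622% of all genes. In RC4, 1 was higher, against 3.69%, and 2 were lower, against 13.4%. In RC8, 2 were lower, against 3.53%. Trib2 was at 161 RPM in NT, 45.6 in RC4 and 64.4 in RC8 (log2 -1.82 and -1.32), where Trib3 was above NT in both, and Trib1 had log2 ratios of 0.27 (AS), 1.07 (RC4) and 0.37 (RC8), on the same side of NT as Trib3 in each. Sesn1 was at 64.6 RPM in NT, 7.29 in RC4 and 19.5 in RC8 (log2 -3.15 and -1.73), against 0.51 and -0.31 for Sesn2. Jun, a bZIP gene of the early stress response, was at 168 RPM in NT and 515 RPM in AS (log2 1.62, interval 1.56 to 1.67). Atf3, Chac2, Ddit4l and Cebpa were not in the tables.

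**Figure D4:**
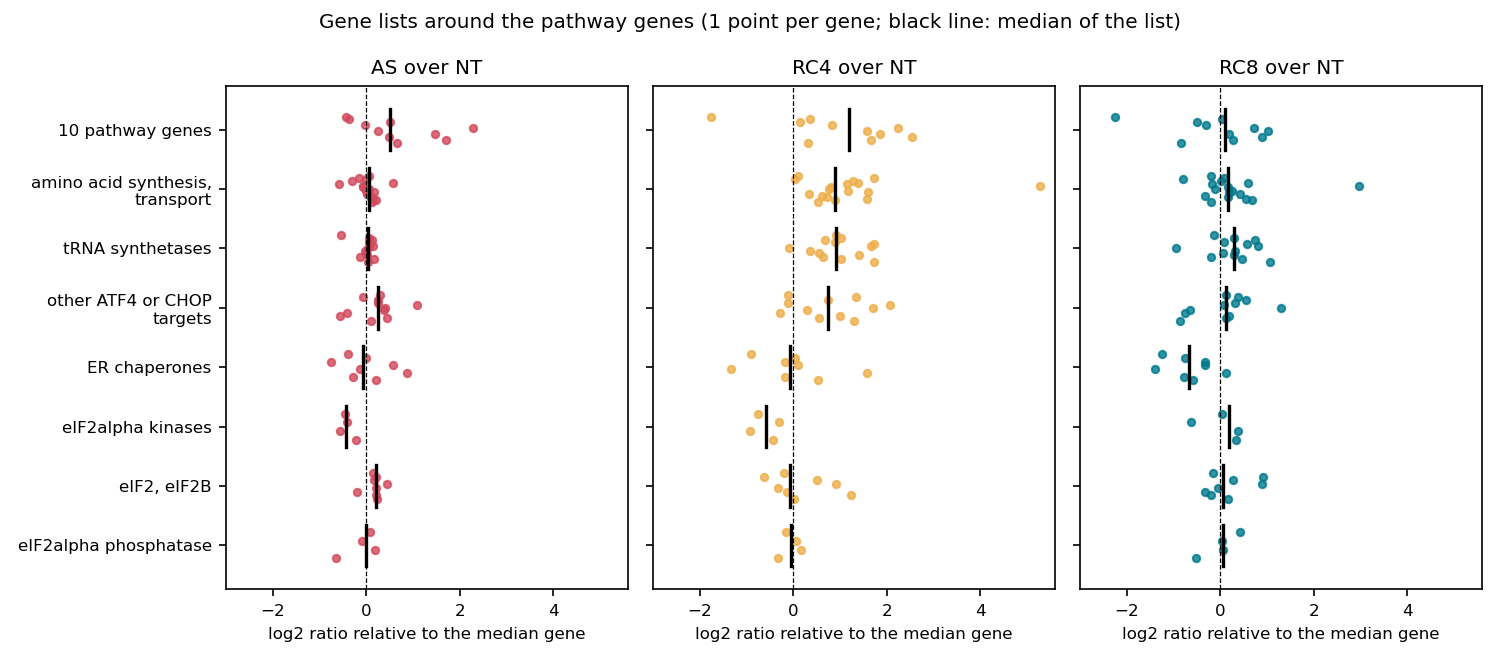
Log2 ratio over NT relative to the median gene (x axis) for the 10 genes and for 7 of the lists around them (y axis), in AS, RC4 and RC8, with 1 point per gene and a black line at the median of each list. In AS the amino acid and tRNA synthetase lists have medians of 0.06 and 0.04, and in RC4 0.89 and 0.91.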

How the data were processed

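The authors trimmed QuantSeq FWD reads with bbmap, aligned them to mm9 with STAR (2.5.2a) and ran MAAPER with PolyA_DB, keeping genes with at least 50 reads. PASs were selected by a minimum share of the gene's reads, so a PAS can be listed in 1 table and not in another. The authors deposited whole-read counts per gene, in 2 columns per library (summed here; 36 of 40 values for the 10 genes were split evenly within the 95% interval). The authors' PAS tables, as deposited, list, per PAS, the fraction of the gene's reads placed there by MAAPER. QuantSeq REV libraries were not analysed here. The deposited p-value, RED and RLD columns hold the authors' own comparisons and were not used. Counts were scaled to the summed reads of a table. Intervals were exact Poisson for levels, conditional binomial for ratios and Wilson for shares (scipy 1.17.1), and reads per PAS were the share times the count. With 1 library per condition, a 2-fold ratio or a shift of 10 percentage points served as the call. Alternatives were median-of-ratios (DESeq2 1.42.0) and TMM (edgeR 4.0.16) scaling, single count columns, read minimums and other thresholds. Ends of 300 nt were aligned to NCBIM37 (minimap2 2.31), and no gene had another copy of at least 100 nt at 90% identity. From a list, genes past 2-fold were named, at most 4 per comparison with NT by size, or else the farthest from NT. The intervals and scores were tested on simulated data. Members, lists and tests were chosen with earlier results of these data known.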

Additional observations from a re-analysis of the deposited data

Results flagged for a closer look

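Atf4 and Ddit4 lay on opposite sides of NT at different times. The log2 ratio of Atf4 over NT was 0.62 in AS and -0.84 in RC8, and that of Ddit4 was 0.47 in AS and -0.49 in RC8, with counting intervals that did not reach 0. RED of Ddit3, taken between the pair of PASs with the largest changes in each table, was -0.91 in AS and 2.81 in RC8. The pair differs between these tables, and over a fixed pair of PASs the sign was the same in both. With 1 library per condition none of these differences was tested.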

How the results depend on the processing

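Of 78 counts of members under an alternative, 70 stayed within 1.5 times the reported one. The log2 ratios themselves depended more on the scaling. Under median-of-ratios scaling, 28 of 50 fell outside their counting interval by total reads, and under TMM scaling 28 of 50 did. Apart from Atf4 in AS over NT, these were all in comparisons that include RC4. With the first count column alone, no member was at least 2-fold higher in RC8 over NT (0, Asns falling short) and 1 was in RC4 over AS. That column also gave 3 members, not 4, at least 2-fold lower in RC8 over RC4, Ddit3 falling short. At 1.5-fold, 3 were higher and 2 lower in RC8 over NT, and 3 were lower in RC4 over AS. A threshold of 5 percentage points gave 2 PAS shifts in AS and 3 in RC4, and PASs of the 3'-most exon alone gave 0 in RC4, since the distal PAS of Cebpb is listed under another type. No called ratio changed sign. Ratios under 2-fold changed sign for Ddit4 in RC4 (0.15 by median-of-ratios and 0.14 by TMM scaling) and for Sesn2 in AS (0.20 with the second count column). Either scaling gave 6 members, not 4, at least 2-fold lower in RC8 over RC4. RED over fixed PAS pairs and over PASs of any type was added after seeing the data. No replicate could be left out, and no paired analysis was possible because each condition had 1 library. Sesn2, Chac1, Ppp1r15a and Trib3 in NT rest on 132, 242, 268 and 308 reads, which limits their ratios most.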
